A study of Mus musculus with 6 samples.

Results

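This account follows the genes of mouse chromosome 11 in undifferentiated embryonic stem (ES) cells of a wild-type line and a Hira-null clone. Members are the genes read by a probe set with 1 gene symbol and placed on chromosome 11 by the RefSeq genes of GRCm38.p6. A gene with several such probe sets is represented by the one with the highest mean over the 6 arrays. The rule finds 1563 genes among 19856 genes in all, and 1351 of them passed a filter on low values. These 1351 are called measured genes below, beside 15199 measured genes in all. The other 212 members were listed mostly near the lower end of the scale, with 43 olfactory receptor genes, 15 keratin genes and 12 small RNA genes among them. Their median difference between the lines was -0.05, with 62.3% lower in the Hira-null arrays.

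The WT group holds 3 arrays (replicates 1 to 3) of w9.5, the parental ES cell line with WT genotype. The Hira-null group holds 3 arrays (replicates 1 to 3) of Cl34, ES cells labelled Hira-/-. Both lines were grown in serum with a leukaemia inhibitory factor supplement and were not differentiated, and cells were taken at differing confluence that no label ties to an array. Cl34 is 1 clone, so the loss of Hira and any other difference between the 2 lines cannot be told apart. The arrays are Affymetrix Mouse Gene 1.0 ST, and every level below is a deposited log2 value. A difference is the Hira-null mean minus the WT mean, so a value of -1 stands for a 2-fold lower level. The labels call the arrays of a line biological replicates without saying whether they were separate cultures, so the p-values reflect only the spread of these arrays.

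HIRA is a histone chaperone that places the histone variant H3.3 into chromatin outside DNA replication, at active genes and regulatory elements among other places. Mouse chromosome 11 is rich in genes. It carries the Hoxb cluster, the type I keratins, the Stat3 and Stat5 genes, the imprinted gene Grb10 and many housekeeping genes. Mouse ES cells in culture are known to gain whole chromosomes, with chromosome 11 among those gained. DNA copy number was not measured here.

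The promoters of the genes that stand at the ends and in the middle of the results are shown first, as the 250 bases before the first start that RefSeq lists for each gene (build GRCm38.p6). Lower case marks every base except CG dinucleotides, which are in capitals. The first pair belongs to the 2 genes farthest below the general shift of the chromosome among named genes whose values, with that shift taken out, did not overlap between the lines. Castor1 lies at chr11:4217975-4218224 on the plus strand and Tefm at chr11:80142154-80142403 on the minus strand.
Castor1: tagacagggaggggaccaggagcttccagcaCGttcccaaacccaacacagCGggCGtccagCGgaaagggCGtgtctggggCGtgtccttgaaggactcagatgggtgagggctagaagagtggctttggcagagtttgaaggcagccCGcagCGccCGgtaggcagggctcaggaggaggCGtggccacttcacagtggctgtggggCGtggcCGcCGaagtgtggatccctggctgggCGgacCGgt
Tefm: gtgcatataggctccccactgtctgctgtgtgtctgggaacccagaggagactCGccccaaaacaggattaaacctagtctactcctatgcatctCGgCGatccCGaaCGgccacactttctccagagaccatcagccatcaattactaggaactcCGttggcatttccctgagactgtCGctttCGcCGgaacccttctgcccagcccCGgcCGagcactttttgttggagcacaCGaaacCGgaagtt

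The next 3 belong to the genes farthest above the shift among those that met the escape rule given with the results. Slc13a5 lies at chr11:72267162-72267411, Cobl at chr11:12464961-12465210 and Grb10 at chr11:12037421-12037670, all on the minus strand. RefSeq lists 2 starts for each of these 3 genes, and the first was used.
Slc13a5: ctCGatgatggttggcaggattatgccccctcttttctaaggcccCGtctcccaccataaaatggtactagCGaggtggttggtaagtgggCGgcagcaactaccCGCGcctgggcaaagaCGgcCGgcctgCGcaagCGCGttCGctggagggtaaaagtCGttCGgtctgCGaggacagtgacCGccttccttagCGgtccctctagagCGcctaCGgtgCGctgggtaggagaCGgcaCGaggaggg
Cobl: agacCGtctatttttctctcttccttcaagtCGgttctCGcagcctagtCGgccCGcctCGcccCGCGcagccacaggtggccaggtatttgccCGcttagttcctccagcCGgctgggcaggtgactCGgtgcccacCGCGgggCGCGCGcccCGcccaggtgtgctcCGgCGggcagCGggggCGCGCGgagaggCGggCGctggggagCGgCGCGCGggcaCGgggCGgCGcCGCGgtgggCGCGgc
Grb10: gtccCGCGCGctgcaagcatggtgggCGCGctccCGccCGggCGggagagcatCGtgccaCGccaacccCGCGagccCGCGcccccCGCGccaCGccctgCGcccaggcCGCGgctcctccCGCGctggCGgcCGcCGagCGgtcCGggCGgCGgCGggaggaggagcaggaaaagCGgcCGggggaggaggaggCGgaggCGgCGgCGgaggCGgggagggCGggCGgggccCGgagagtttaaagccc

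The last pair belongs to genes that followed the shift with the least spread. Nudcd2 lies at chr11:40733411-40733660 on the plus strand and Slc38a10 at chr11:120151352-120151601 on the minus strand.
Nudcd2: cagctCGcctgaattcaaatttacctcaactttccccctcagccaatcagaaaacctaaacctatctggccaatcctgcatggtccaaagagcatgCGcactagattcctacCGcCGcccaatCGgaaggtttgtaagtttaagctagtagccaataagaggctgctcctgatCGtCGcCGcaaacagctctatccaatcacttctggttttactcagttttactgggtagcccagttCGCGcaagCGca
Slc38a10: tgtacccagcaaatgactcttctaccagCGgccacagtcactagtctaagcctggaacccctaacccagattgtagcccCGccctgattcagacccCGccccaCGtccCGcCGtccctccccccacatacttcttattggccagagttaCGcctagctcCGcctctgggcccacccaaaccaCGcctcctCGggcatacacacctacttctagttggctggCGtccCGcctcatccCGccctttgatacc

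The 7 windows differ most in CG content. Grb10 holds 40 CG dinucleotides and Cobl 36, against 22 in Slc13a5, 15 in Castor1, 13 in Tefm, 13 in Slc38a10 and 11 in Nudcd2. Words of 4 common promoter elements were searched on both strands. They were TATAAA for the TATA box, then CCAAT for the CCAAT box, GGGCGG for the GC box and, for the E-box, CACGTG, and none of them holds another. The TATA and E-box words occur in none of the 7 windows, the CCAAT word occurs in those of Nudcd2 and Slc38a10, and the GC box word occurs in all but that of Tefm. The table holds 27025 promoter windows of 300 bases, and the words occur in 14.2% (TATA), 37.9% (CCAAT), 35.9% (GC box) and 7.24% (E-box) of them. Those windows reach 50 bases past the start and cover genes of every level, so they are not like the 7. The 7 genes belong to the middle and high classes of expression defined below. In windows of 300 bases for 729 chromosome 11 genes of those classes, the shares were 6.72%, 39.8%, 67.4% and 12.8%. A match is a description of these letters only.

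Some facts of the arrays bear on every value. Array medians ran from 4.93 to 5.02. Arrays of a line correlated at 0.959 to 0.986 and arrays of different lines at 0.947 to 0.984. The array farthest from its own line was Hira-null replicate 3, with a root mean square deviation from the line mean of 0.34 against 0.27 and 0.26 in Hira-null replicates 1 and 2. In the WT line it was replicate 1 by less, at 0.24 against 0.21 and 0.19. These are called the outlying arrays, and larger moves of the values without them are given beside those values. All 12 ES cell markers were measured, with mean levels of 11.4 for Pou5f1, 10.9 for Nanog and 10.1 for Sox2. Of the markers of other cell types, 8 of 12 fibroblast, 9 of 11 endoderm, 7 of 8 trophoblast, 6 of 7 neural, 6 of 7 mesoderm and 3 of 6 blood genes passed the filter on low values. The summed level of the endoderm markers (log2 of the sum) was 9.66 to 10.2 in the WT arrays against 9.02 to 9.42 in Hira-null, without overlap, and its part in the results below was not tested. The ranges of the other marker sums overlapped between the lines. Hira itself read -0.64, with a limma adjusted p of 0.352.

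Genes of chromosome 11 as a whole lay lower in the Hira-null arrays, by a small amount that most genes shared. The median difference over the 1351 measured genes was -0.24, a level 1.18-fold lower, and 1104 genes (81.7%) had lower Hira-null means. Genes of the chromosomes other than 8, 11 and Y had a median of 0.02, with 45.6% lower. The middle 80% of chromosome 11 genes ran from -0.64 to 0.08. Chromosome 8 showed a like shift in the same arrays, with a median of -0.27 over 809 genes. The shift was chosen for study because it was already known, so it carries no test here.

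No single gene carried the difference past the test. With limma over 25142 probe sets, 0 of the 1351 chromosome 11 genes had an adjusted p under 0.05, and the lowest adjusted p was 0.149. In all, 1 probe set was called, which is 0.00398% of those tested. At an unadjusted p under 0.05 there were 365 lower and 10 higher genes on the chromosome, where the shares over all 15199 measured genes were 6.29% lower and 4.17% higher. All 3 Hira-null values lay below all 3 WT values for 448 genes (33.2%), where the share over all measured genes was 9.55%. The opposite order was found for 25 genes (1.85%), against 7.8% over all measured genes. Without both outlying arrays the first count was 714, since 2 arrays against 2 overlap less often, and the median was -0.25.

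The same lower level was seen in each array. The median deviation of chromosome 11 genes from their own means was 0.12, 0.12 and 0.10 in WT replicates 1, 2 and 3, and -0.14, -0.093 and -0.11 in Hira-null replicates 1, 2 and 3. Hira-null replicate 1 had 85.4% of the genes below the WT mean, replicate 2 had 74.3% and replicate 3 had 72.0%. The lines did not overlap in these medians. On the other chromosomes the 6 medians lay between -0.02 and 0.022.

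The size of the difference depended on how strongly a gene was read. All measured genes were split by mean level into 3 classes of equal size (low, middle and high), at 5.35 and 7.11. The 445 chromosome 11 genes of the low class had a median difference of -0.09, with 67.2% lower and 59 lower without overlap. The 405 genes of the middle class had a median of -0.27, with 83.5% lower and 125 without overlap. The 501 genes of the high class had a median of -0.41, a level 1.33-fold lower, with 93.2% lower and 264 without overlap. The counts without overlap are 13.3%, 30.9% and 52.7% of the low, middle and high class. On chromosomes other than 8, 11 and Y these shares were 5.48%, 5.77% and 5.20%.

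The array medians also separated differently by level. In the high class they were 0.17, 0.20 and 0.24 in the WT arrays against -0.12, -0.19 and -0.30 in Hira-null replicates 1, 2 and 3, so Hira-null replicate 3 was the lowest. In the middle class they were 0.21, 0.067 and 0.10 in WT against -0.18, -0.12 and -0.088. In the low class they overlapped, with 0.035, 0.067 and -0.012 in WT against -0.15, 0.042 and -0.03. Low-class genes of the other chromosomes gave -0.098 in Hira-null replicate 1 and 0.062 in replicate 2. Over 10 equal steps of level, the median was -0.093 in the lowest step, -0.15 in the fourth, -0.32 in the sixth and -0.39 in the seventh. From the seventh to the highest step it stayed between -0.42 and -0.39. Raw signals and background levels were not analysed here.

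**Figure D1:**
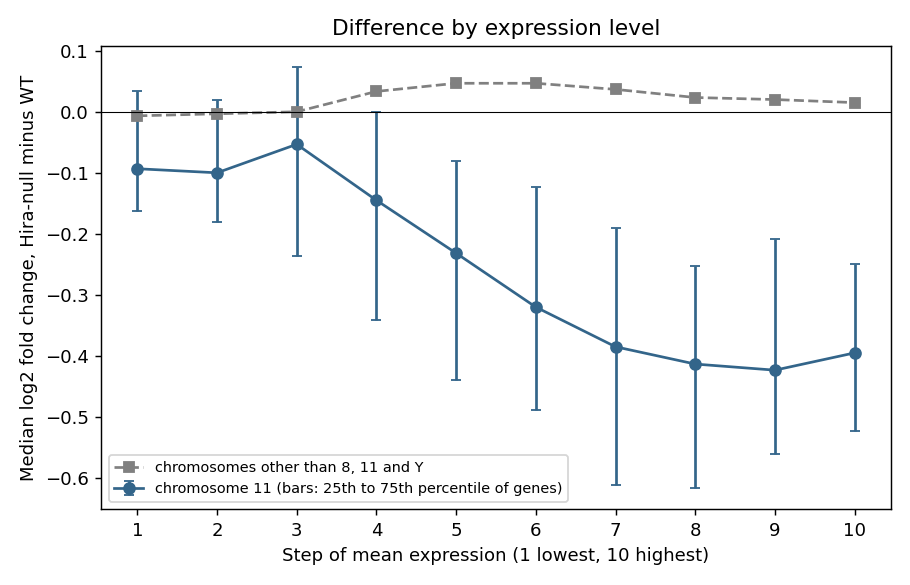
Median log2 difference (Hira-null minus WT, vertical axis) by step of mean expression (horizontal axis, 1 lowest), for chromosome 11 (blue, bars from the 25th to the 75th percentile of genes) and the chromosomes other than 8, 11 and Y (grey). The blue medians go from -0.093 in the lowest step to -0.42 in the ninth, while the grey medians stay between -0.0067 and 0.047.

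The lower level was found along the whole chromosome. The measured genes were ordered by position and split into 10 segments of 135 or 136 genes. In all 10 segments the 3 Hira-null array medians lay below the 3 WT medians. The segment medians ran from -0.35 in segment 1, from Sfi1 to Fancl, to -0.15 in segment 7, from Scpep1 to Thra. Among high-class genes alone the segments ran from -0.48 in segment 6 to -0.34 in segment 8. Low-class genes made up 25.2% of segment 1 and 32.6% of segment 7. They made up 37.8% of both segment 2 and segment 6, where the medians were -0.22 and -0.32. After the shift of each class was taken out, the segment medians lay between -0.066 and 0.048.

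**Figure D2:**
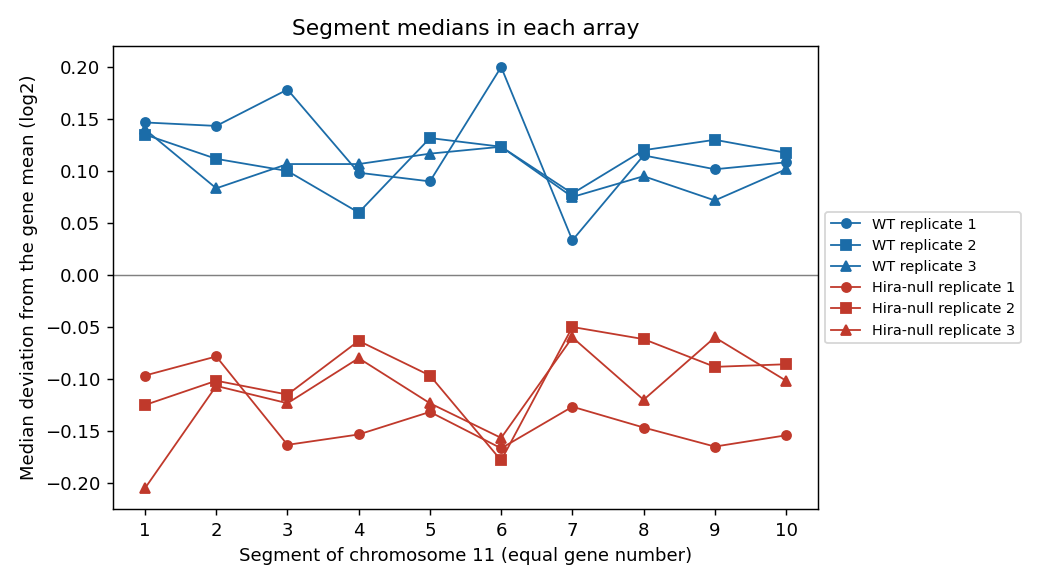
Median deviation from the gene mean (vertical axis, log2) of the genes in each of 10 segments along chromosome 11 (horizontal axis), with 1 point per array. The WT arrays (blue) lie at 0.033 or higher and the Hira-null arrays (red) at -0.05 or lower in every segment.

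Smaller windows showed where the pattern was deepest and where it was missing. Of 1327 windows of 25 neighbouring genes, 1321 had a median below 0. The lowest median was -0.47, from Ppp3r1 to Cct4, genes 97 to 121 in order. The highest was 0.027, from Rnf227 to Spem2, genes 473 to 497. Windows of the other chromosomes ran from -0.45 to 0.37. The longest unbroken run of lower genes had 35 members, from Nf2 to Myo1g.

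The window from Rnf227 to Spem2 was picked after its values were seen. It held 11 lower genes of 25, with 3 lower and 3 higher without overlap. Its array medians overlapped, with -0.017, -0.038 and 0.022 in the WT arrays against -0.092, 0 and -0.015 in Hira-null. Only 7 of its genes were in the low class, and of the other 18 genes 9 were lower. Kdm6b, a demethylase of histone H3 lysine residues marked by Polycomb, read 0.38 there, and Efnb3, an ephrin ligand gene, read 0.39. Cd68, a lysosomal protein gene of macrophages, read 0.50 with a standard error (SE) of 0.34. Senp3, a SUMO protease gene, read 0.06, and Sox15, a Sox factor of ES cells, read -0.01. Polr2a, the largest subunit of RNA polymerase II, read -0.22, and Eif4a1, a translation initiation helicase gene, read -0.19. Fxr2 (-0.41), Atp1b2 (-0.46) and Naa38 (-0.40) stood at the general shift within the same window.

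**Figure D3:**
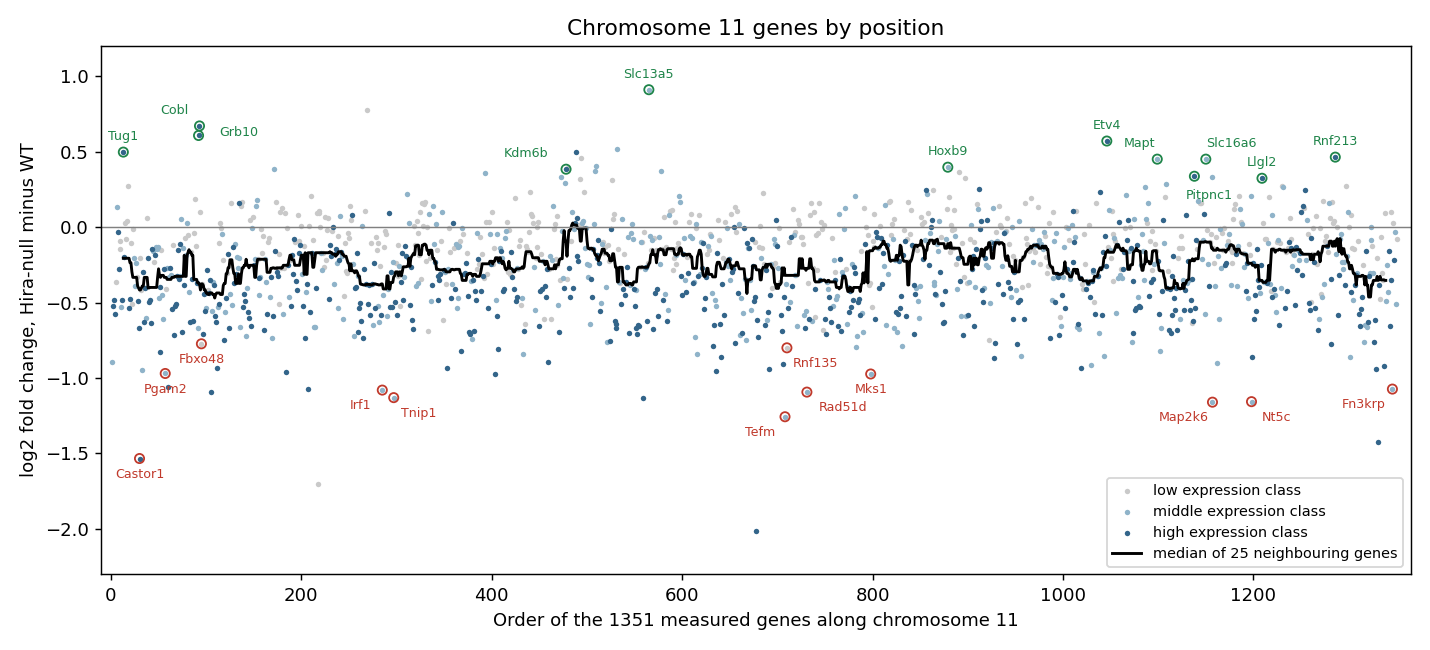
Log2 difference (Hira-null minus WT, vertical axis) of the 1351 measured genes in their order along chromosome 11 (horizontal axis), coloured by class of mean expression, with the median of 25 neighbouring genes as a line. The line stays below 0 in 1321 of 1327 windows, and circles mark the named genes that lay lower than the shift (red) or without it (green).

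From each segment the 1 gene with the smallest unadjusted p was taken, and all 10 were lower without overlap. A choice by p on a chromosome of mostly lower genes favours that order and close arrays, so neither is a separate result. Segment 2 gave Sptbn1, a beta spectrin gene, at 9.84, 9.74 and 9.83 in the WT arrays against 9.14, 9.12 and 9.19 in Hira-null. Segment 3 gave Prpsap2, a regulator of phosphoribosyl pyrophosphate synthetase, at 9.31, 9.20 and 9.34 against 8.29, 8.33 and 8.30. Its difference was -0.98 (SE 0.11, limma adjusted p = 0.149), and the arrays of each line lay close together. Segment 4 gave Zswim7, a homologous recombination gene, at 8.11, 8.07 and 8.16 against 7.32, 7.36 and 7.23. Segment 5 gave Eral1, a GTPase gene of mitochondrial ribosome assembly, at 7.77, 7.76 and 7.88 against 7.15, 7.01 and 7.15. Their differences were -0.81 and -0.70, and the Hira-null arrays were low in every case. Segment 7 gave Lrrc59, a gene of the endoplasmic reticulum membrane, at -0.71, and segment 8 gave Ccdc43 at -0.70. The genes of segments 1, 6, 9 and 10 were Pgam2, Mks1, Nt5c and Fn3krp, described below.

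To ask which genes departed from the shift, each array's median deviation was taken out, over genes of the same chromosome and the same class of mean level. The value that remains is called the centred difference, and 0 means the shift of the gene's own chromosome and class. Across the steps of level that the middle class spans, the median went from -0.15 in the fourth to -0.39 in the seventh. Centred differences of middle-class genes still hold part of that trend, and tend lower at the top of the class and higher at its bottom. With limma on the centred values of 15143 genes, 2 genes (0.0132%) passed an adjusted p of 0.05, and 0 of them lie on chromosome 11, where the lowest adjusted p was 0.107. On the chromosome 125 genes had an unadjusted p under 0.05, which is 9.25% against 8.39% of all genes in that fit and 8.25% of those off chromosomes 8 and 11. The span from the 25th to the 75th percentile of the centred differences was 0.32 on chromosome 11 and 0.27 elsewhere. Groups of genes that follow, exceed or escape the shift are therefore described by rule and not by a passed test. With arrays weighted by quality, 16 chromosome 11 genes (1.18%) passed the centred fit, against 131 of all 15143 genes (0.865%). Of the genes described below these were Map2k6, Nt5c, Tnip1, Fn3krp, Mks1, Pgam2, Prpsap2, Slc13a5, Cobl, Grb10, Rnf213, Kdm6b and Hoxb9.

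Genes that follow the shift were taken from the middle and high classes, lower without overlap and with a centred difference within 0.1 of 0. There were 125 of 906 such genes, 103 of them in the high class. Over all chromosomes the rule took 215 of 10111 genes (2.13%), and since it asks for a lower level it finds few genes where the chromosome's own shift is near 0. The 10 with the smallest SE include genes of trafficking, signalling and turnover. Nudcd2, a NudC-domain cochaperone gene, read 9.98, 9.97 and 9.94 in the WT arrays against 9.69, 9.61 and 9.65 in Hira-null. Slc38a10, of an amino acid transporter family, read 7.86, 7.85 and 7.84 against 7.41, 7.49 and 7.49. Stard3, a cholesterol-binding protein gene of late endosomes, read 7.38, 7.40 and 7.38 against 6.96, 6.96 and 7.10. In each the Hira-null arrays lay below by more than the spread within a line, which the rule and the choice by small SE favour. The differences were -0.31, -0.39 and -0.38.

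Strongly read genes were among the followers. Arf1, a GTPase gene of the Golgi, read 11.60, 11.44 and 11.54 in the WT arrays against 11.18, 11.21 and 11.25 in Hira-null, and its other probe set gave -0.32 beside -0.31. Ywhae, the 14-3-3 epsilon gene, read 11.54, 11.44 and 11.52 against 11.13, 11.16 and 11.22. The 2 levels lay 1.24-fold and 1.26-fold lower. Hgs, of the endosomal sorting complex, had a difference of -0.38, Nploc4, a cofactor of the p97 segregase, -0.43, and Becn1, an autophagy gene, -0.36. Hid1, of secretory vesicle formation, read -0.27 and Nt5c3b, a nucleotidase gene, -0.31. The limma adjusted p of the 10 genes ran from 0.316 to 0.508.

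**Figure D4:**
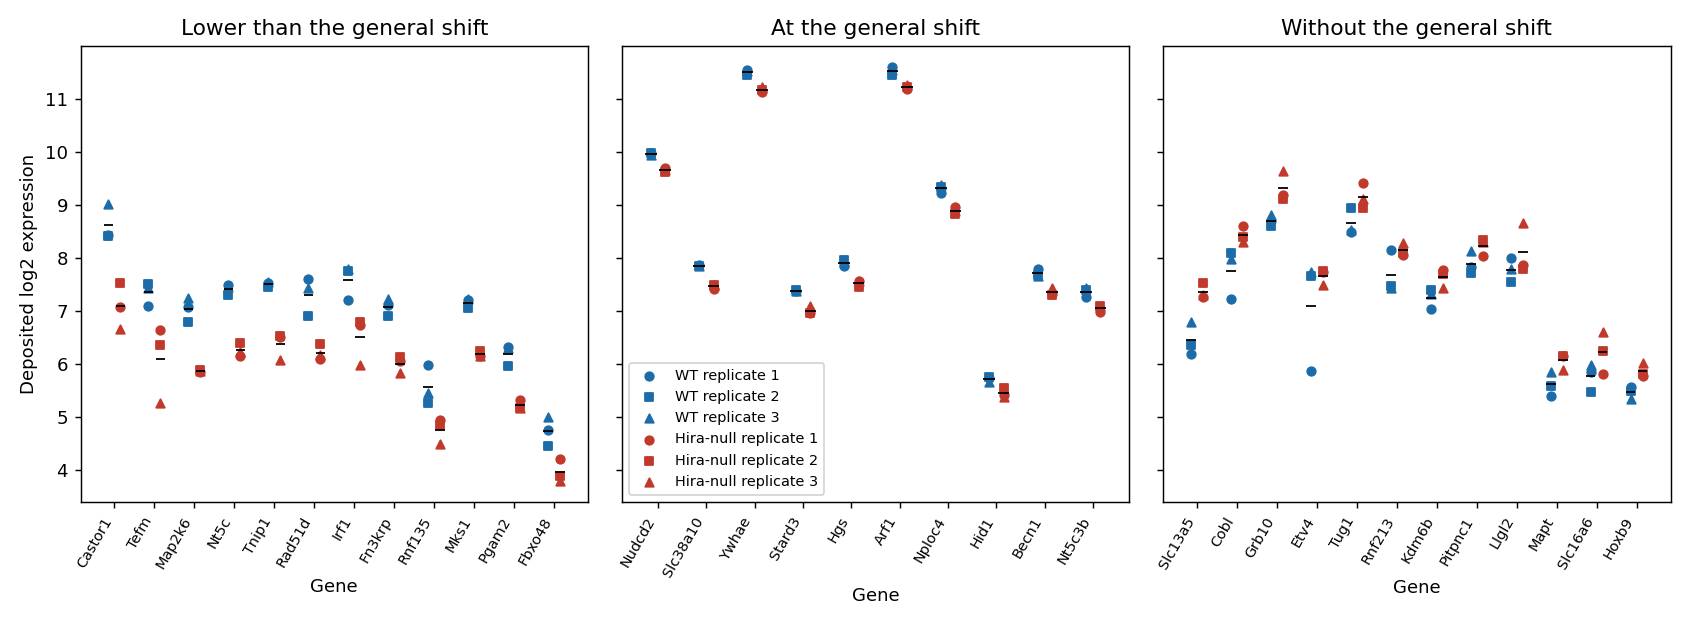
Deposited log2 expression (vertical axis) of the named genes in each of 3 WT (blue) and 3 Hira-null (red) arrays, with line means as bars, for genes below the general shift (left), at it (middle) and without it (right). Etv4 is the gene of the right panel whose WT replicate 1 (5.88) lies far below the other WT arrays (7.66 and 7.74).

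Genes that exceed the shift had centred values without overlap and a centred difference of -0.5 or lower. The rule found 34 genes, or 2.52% of those measured, against 1.9% over all measured genes, so the share lies near the background. Of these, 8 were in the low, 17 in the middle and 9 in the high class, and 33 were protein coding. Segments 1 and 6 held 7 each and segment 7 held 0. The last genes inside the limit were Fzd2 and Crlf3 (centred -0.51 each), and the first outside were Stk10 (-0.48) and Dhrs13 (-0.46). The count was 58 without Hira-null replicate 1 and 52 without WT replicate 2, and it was 34 without both outlying arrays, with 17 genes shared.

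Castor1, the cytosolic arginine sensor upstream of mTORC1, had the largest departure among the exceeding genes. It read 8.43, 8.42 and 9.02 in the WT arrays against 7.08, 7.53 and 6.66 in Hira-null. The means were 8.62 ± 0.34 and 7.09 ± 0.44 (SD, n = 3), a difference of -1.53 (SE 0.27, limma adjusted p = 0.22) or 2.89-fold. Every Hira-null array lay below every WT array.
Tefm, the elongation factor of mitochondrial transcription, read 7.10, 7.51 and 7.44 against 6.64, 6.37 and 5.27. Hira-null replicate 3 was the lowest, and the difference of -1.26 became -0.85 without it.

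Signalling and nucleotide genes followed in size. Map2k6, a kinase gene upstream of p38, read 7.07, 6.79 and 7.25 in the WT arrays against 5.86, 5.90 and 5.87 in Hira-null, a difference of -1.16 (SE 0.15, limma adjusted p = 0.177). Nt5c, a cytosolic nucleotidase gene, read 7.49, 7.30 and 7.46 against 6.16, 6.39 and 6.23. Its difference was -1.16 (SE 0.13), and its limma adjusted p of 0.149 was, with that of Prpsap2, the lowest of the chromosome, with 0.107 in the centred fit. Both genes lay 2.23-fold lower with arrays close together. Tnip1, an inhibitor of NF-kB signalling, read 7.53, 7.46 and 7.54 against 6.52, 6.54 and 6.08. Irf1, an interferon-regulated transcription factor gene, read 7.20, 7.75 and 7.80 against 6.74, 6.79 and 5.98. The differences were -1.13 and -1.08, but the other Irf1 probe set gave -0.11, so its probe sets disagree.

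Repair, cilium and sugar-metabolism genes completed the 12. Rad51d, a homologous recombination gene, read 7.60, 6.90 and 7.43 in the WT arrays against 6.09, 6.38 and 6.18 in Hira-null. Mks1, of the ciliary transition zone, read 7.21, 7.05 and 7.22 against 6.15, 6.25 and 6.16. Their differences were -1.09 and -0.97, with no overlap. Fn3krp, which encodes a kinase related to the deglycating fructosamine-3-kinase, read 7.11, 6.91 and 7.23 against 6.06, 6.13 and 5.84. Pgam2, the muscle phosphoglycerate mutase gene, read 6.33, 5.96 and 6.30 against 5.32, 5.18 and 5.18. Those 2 differed by -1.07 and -0.97. Rnf135, a ubiquitin ligase gene of RIG-I signalling, read -0.80 and Fbxo48, an F-box gene, -0.77. Both are in the low class, and Rnf135 read -0.46 without both outlying arrays.

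A few exceeding genes were close neighbours. Crlf3, Tefm and Rnf135 stand at places 706, 708 and 710 in the gene order, and Adprm and Myh3 at 433 and 435. The centred difference of adjacent genes correlated weakly over 1350 pairs (Pearson r 0.149, Spearman rho 0.168), beside 0.114 and 0.103 over 12965 pairs of the other chromosomes. Genes that share arrays and overlapping transcripts are not independent, so these values are a description.

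Some large differences did not meet the rule because the centred values overlapped. Aldoc, the brain-type aldolase gene, had the largest difference on the chromosome, at 9.61, 8.19 and 9.0 in the WT arrays against 7.29, 7.84 and 5.62 in Hira-null. The difference was -2.02 (SE 0.60, limma adjusted p = 0.352) and -1.03 without both outlying arrays. Irgm1, an interferon-inducible GTPase gene, and Slc16a3, a lactate exporter gene, were singled out after their values were seen, at -1.70 and -1.43. Slc16a3 overlapped, with 8.42 in WT replicate 2 and 9.08 in Hira-null replicate 2. In all 15 genes had a difference of -1 or lower, and 0 had one of 1 or higher.

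Genes that escape the shift were taken from the middle and high classes, with a difference above 0 and centred values that were higher without overlap. There were 48 of 906 (5.30%), against 7.82% over all measured genes of those classes. On this chromosome a gene must depart further to lie above 0 than on a chromosome with no shift, so the shares are not like for like. Of the 48, 31 were in the middle and 17 in the high class, and 11 were higher without overlap before centring. Segment 9 held 10, and segments 2 and 6 held 1 each. The last genes inside the rule were Tbkbp1 (0.017) and Stat5a (0.013), and the first outside were Rnasek (-0.01) and Chd3 (-0.023). The count was 83 without WT replicate 1, 81 without Hira-null replicate 1 and 73 without both outlying arrays.

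Slc13a5, the sodium-coupled citrate transporter gene, had the largest departure among the escaping genes. It read 6.19, 6.37 and 6.80 in the WT arrays against 7.27, 7.52 and 7.30 in Hira-null. The means were 6.45 ± 0.31 and 7.36 ± 0.14 (SD, n = 3), a difference of 0.91 (SE 0.19, limma adjusted p = 0.233). The lowest Hira-null array lay above the highest WT array by more than the SD of either line.
Cobl and Grb10 are neighbours, at places 93 and 92 in the order. Cobl, an actin nucleator gene, read 7.22, 8.09 and 7.98 against 8.61, 8.39 and 8.30. Grb10, an imprinted adaptor gene that restrains insulin receptor signalling, read 8.70, 8.61 and 8.80 against 9.19, 9.11 and 9.63. The differences were 0.67 and 0.61, both without overlap, and Cobl read 0.40 without WT replicate 1. Ddc, the aromatic amino acid decarboxylase gene just before them, read 5.99, 6.62 and 6.74 against 6.16, 6.20 and 4.99. Its lines overlapped, and its difference of -0.67 was -0.27 without Hira-null replicate 3.

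Chromatin, RNA and transcription factor genes were among the other named escaping genes. Kdm6b read 7.04, 7.39 and 7.33 in the WT arrays against 7.78, 7.70 and 7.43 in Hira-null, without overlap. Hoxb9, a posterior Hox gene, read 5.58, 5.49 and 5.34 against 5.77, 5.81 and 6.02, also without overlap. Tug1, a long noncoding RNA, read 8.49, 8.94 and 8.53 against 9.41, 8.94 and 9.10. The differences were 0.38, 0.40 and 0.50, and Tug1 touched at 8.94. Etv4, an ETS factor gene downstream of FGF signalling, read 0.57 with WT replicate 1 at 5.88, and -0.037 without that array. Rnf213, a large ubiquitin ligase gene, read 0.46 and 0.36 at its 2 probe sets, with overlap.

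Polarity, lipid and neuronal genes made up the remainder. Mapt, the tau gene, read 5.41, 5.59 and 5.86 in the WT arrays against 6.16, 6.16 and 5.89 in Hira-null, a difference of 0.45 without overlap. Pitpnc1, a phosphatidylinositol transfer protein gene, read 0.34, Slc16a6, of the monocarboxylate transporter family, 0.45 and Llgl2, a cell polarity gene, 0.32. These 3 overlapped, and without Hira-null replicate 3 Llgl2 read 0.045 and Slc16a6 0.26. Stat3, the transcription factor that relays leukaemia inhibitory factor, read 8.51, 8.26 and 8.53 against 8.52, 8.40 and 8.70. Its difference was 0.11 (SE 0.14), beside 0.013 (SE 0.15) for its neighbour Stat5a. Neither gene passed the centred fit, with limma adjusted p of 0.376 for Stat3 and 0.627 for Stat5a. Other escaping pairs near each other were Etv4 with Sost and Tnrc6c with Tmc8.

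Function lists of chromosome 11 genes differed in how far they lay from the shift. The lists were drawn up with earlier results of these data known, and they are described by counts and medians, with no test. In all of them 0 genes passed limma at an adjusted p of 0.05. Among all 1351 measured genes 81.7% were lower, the median was -0.24 and 33.2% were lower without overlap.

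Lists of basic cell machinery lay at or below the high-class median of -0.41. Of 14 DNA repair genes, 14 were lower and 11 without overlap, with a median of -0.58 and a centred median of -0.22. That list includes Tex2 and Smg8, which are not repair genes. Besides Rad51d, it held Faap100 of the Fanconi anaemia core (-0.86), the helicase gene Brip1 (-0.64) and the topoisomerase gene Top3a (-0.74). Its array medians were 0.30, 0.22 and 0.34 in the WT arrays against -0.11, -0.25 and -0.61 in Hira-null, so Hira-null replicate 3 was the lowest, and without it the list median was -0.50. Nucleotide metabolism genes were lower in 10 of 10 cases with a median of -0.54, including Prpsap1 and the nucleoside diphosphate kinase gene Nme2 (-0.54 each). Translation and ribosome assembly genes were lower in 11 of 11 with a median of -0.53. Among them were Aatf, of the small-subunit processome (-0.63), Eif4enif1, an eIF4E-binding protein gene (-0.52), and Larp1, a repressor of ribosomal protein mRNA translation (-0.52). Nmt1, an N-myristoyltransferase gene, stands in that list at -0.53 without being a translation factor. All 11 are in the high class.

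Cell division and structural lists came next. Mitosis and replication genes were lower in 19 of 20, with a median of -0.47 that was -0.29 without both outlying arrays. Tubg1, the gamma-tubulin gene, read -0.93, Aurkb, the Aurora B kinase gene, -0.89, Cdk5rap3 -0.71 and Cdc27, of the anaphase-promoting complex, -0.58. Aurkb read 9.51, 8.86 and 9.23 in the WT arrays against 8.42, 8.69 and 7.81 in Hira-null, and its difference was -0.49 without those arrays. Cytoskeleton and cilium genes were lower in 16 of 17 with a median of -0.45, among them the dynein light chain gene Dynll2 (-0.61) and the adaptor gene Tom1l1 (-0.69). Splicing and RNA-binding genes were lower in 16 of 16 with a median of -0.37 (-0.22 without Hira-null replicate 3). Eftud2 (-0.54) and Prpf8 (-0.33), of the U5 particle, Alyref, an mRNA export adaptor gene (-0.54, and -0.32 without Hira-null replicate 3), and Ddx42, a helicase gene (-0.47), were without overlap.

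Chromatin, protein turnover and metabolic genes lay near the high-class shift. General chromatin regulators were lower in 22 of 23 with a median of -0.35, among them the BAF subunit genes Smarce1 (-0.61) and Smarcd2 (-0.68), the acetyltransferase gene Kat2a (-0.53) and Jmjd6 (-0.51). Further Smarce1 probe sets gave -0.66 and -0.59. Folding, secretion and turnover genes were lower in 20 of 22 with a median of -0.38, among them the protein disulfide isomerase gene P4hb (-0.65) and the Golgi SNARE gene Gosr1 (-0.64). Lipid and carbohydrate genes were lower in 21 of 23 with a median of -0.34. Srebf1, the sterol regulatory factor gene, read 8.23, 7.85 and 8.22 in the WT arrays against 7.32, 7.55 and 6.97 in Hira-null, a difference of -0.82. Ogdh, of the citric acid cycle, read -0.51.

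Signalling lists were more mixed. The LIF, STAT, RAS and MAP kinase list had 18 of 23 lower and a median of -0.23, with Map3k3 at -0.70, the mTORC1 scaffold gene Rptor at -0.58 and Map2k4 at -0.46. The WNT, hedgehog, TGF-beta and FGF list had 9 of 12 lower and a median of -0.15 (-0.096 without WT replicate 2). Dvl2 of WNT signalling read -0.56, the casein kinase gene Csnk1d -0.38 and the intraflagellar transport gene Ift20 -0.56, which was -0.33 without Hira-null replicate 3.

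Polycomb genes were split. Suz12, a core subunit of Polycomb complex 2, read 10.07, 10.03 and 9.68 in the WT arrays against 9.49, 9.16 and 9.06 in Hira-null, a difference of -0.69 without overlap. Kdm6b, which removes the mark of that complex, lay the other way. The other 5 members overlapped, with Ezh1 at -0.41, Mbtd1 -0.23, Cbx8 -0.16, Cbx2 -0.13 and Pcgf2 0.043. When single arrays were left out Ezh1 ran from -0.69 to -0.22, Mbtd1 came to -0.08 (without Hira-null replicate 3), Cbx8 to -0.095 (without WT replicate 3) and Cbx2 to -0.05 (without Hira-null replicate 3). Cbx2 was at -0.015 without both outlying arrays. The median was -0.16, and -0.08 without Hira-null replicate 3. Of the histone and HIRA partner list 3 genes were measured, H2aw (-0.23), H2bu2 (0.14) and the kinase gene Tlk2 (0.05), and all overlapped. Tlk2 read -0.16 without Hira-null replicate 3, H2aw -0.14 without WT replicate 3, and H2bu2 0.065 without both outlying arrays. The H3.3 gene of this chromosome was not analysed here.

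Pluripotency-associated genes of the chromosome were 8, with 6 lower and a median of -0.13 that ran from -0.22 to -0.0025 when single arrays were left out. Xbp1, a factor of the unfolded protein response, read 8.65, 8.61 and 8.53 in the WT arrays against 7.92, 8.13 and 7.25 in Hira-null, a difference of -0.83 (-0.55 without both outlying arrays). Kat7, a histone acetyltransferase gene, read -0.25 without overlap. Rara, a retinoic acid receptor gene, read -0.49 (-0.13 without Hira-null replicate 3) and Bcl11a -0.27, both with overlap. Bcl11a was at -0.01 without WT replicate 3. The levels of Otx1 (-0.0033), Sox15 (-0.01), Nr1d1 (0) and Stat3 (0.11) differed by less than their SE. Nr1d1 read -0.25 without Hira-null replicate 3 and -0.29 without both outlying arrays. When single arrays were left out Sox15 ran from -0.18 to 0.083 and Stat3 from 0.02 to 0.18.

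Tissue-restricted lists were mostly of low-class genes and lay near 0. Developmental transcription factors had 15 of 27 lower and a median of -0.013, and 22 of the 27 were in the low class. The median ran from -0.077 to 0.063 when single arrays were left out. That list counts Pitpnc1, which is no transcription factor. Meis1, a Hox cofactor gene, read -0.42 with overlap and Foxj1, a factor of motile cilia, 0.27 without overlap. Blood and immune genes had 15 of 25 lower and a median of -0.11 (-0.23 to -0.06 when single arrays were left out), with 18 in the low class. Slfn3 (-0.59), Cd79b of the B cell receptor (-0.61) and the chemokine gene Ccl3 (-0.68) were lower without overlap.

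Structural, matrix and germline lists had medians nearer 0 than the chromosome as a whole, but they differed in level. Of their genes 16 of 20, 4 of 13 and 9 of 16 were in the low class. Their centred medians were -0.092, 0.069 and -0.11, so the structural and germline lists lay below the shift of their genes' own classes. Muscle, neuronal and skin genes had 16 of 20 lower and a median of -0.17 (-0.078 without Hira-null replicate 1 and -0.11 without WT replicate 2), with the embryonic myosin gene Myh3 at -0.64, Krt17 at -0.48 and the nonmuscle myosin gene Myh10 at -0.66 (-0.38 without WT replicate 1). Matrix and vessel genes had 9 of 13 lower and a median of -0.11, which was 0.015 without Hira-null replicate 1 and -0.30 without Hira-null replicate 3. Of these, Serpinf1 read -0.73 (-0.46 without Hira-null replicate 1), Mfap4 -0.31, Col23a1 -0.24 (-0.15 without Hira-null replicate 3) and Vtn 0.23 (0.14 without WT replicate 3). Germline and meiosis genes had 12 of 16 lower and a median of -0.22 (-0.28 to -0.17 when single arrays were left out). Tex14, of germ cell bridges, read 7.44, 7.32 and 7.42 in the WT arrays against 6.60, 6.65 and 6.84 in Hira-null. The recombination gene Rad51c read -0.57 (-0.37 without both outlying arrays). Spag9 read -0.79 and Pld6, of the piRNA pathway, -0.38, both with overlap. Imprinted genes were 3, with Grb10 above and Commd1 (-0.56) and Ddc below, the latter both with overlap.

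**Figure D5:**
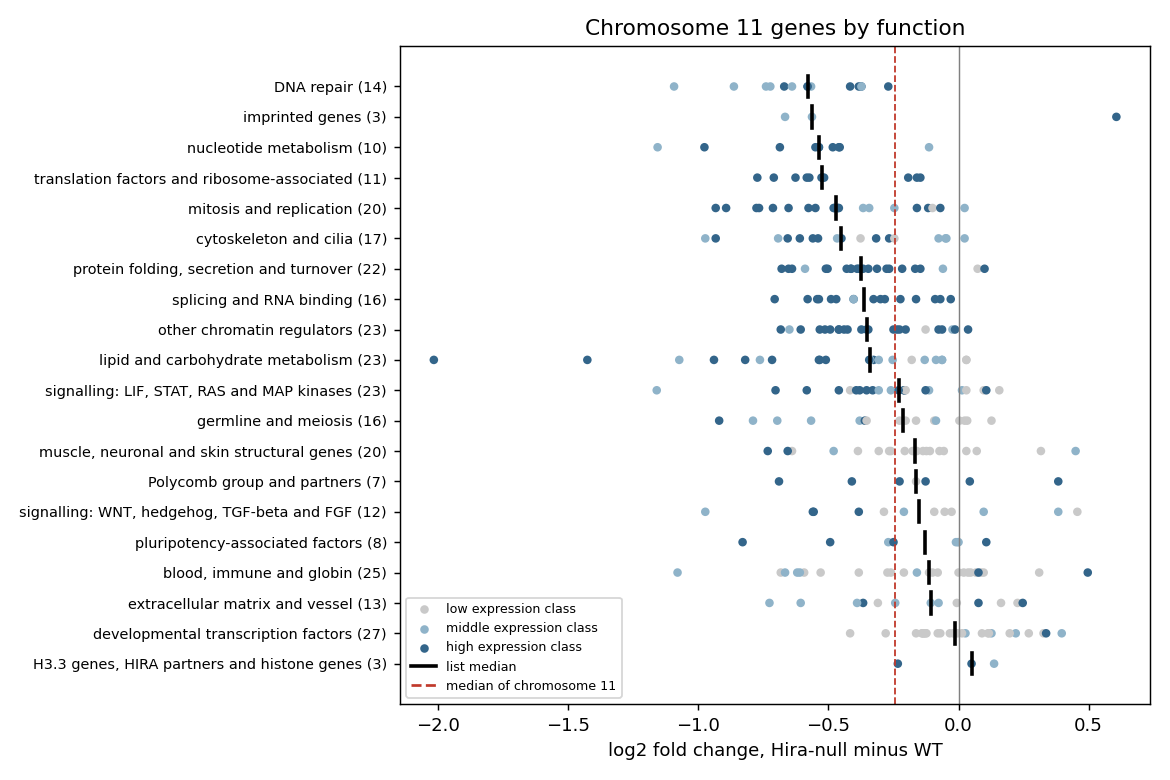
Log2 difference (Hira-null minus WT, horizontal axis) of every measured chromosome 11 gene in each function list (rows), with the list median as a bar and the median of the chromosome (-0.24) as a dashed line. The DNA repair list has the lowest median at -0.58, and the developmental transcription factors, mostly low-class genes (grey), have a median of -0.013.

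Complexes whose subunits are spread over many chromosomes allow a comparison of like genes. All 11 mitochondrial ribosomal protein genes of chromosome 11 were lower, with a median of -0.45 and a range of -0.67 (Mrpl22) to -0.32 (Mrpl12). The 64 on chromosomes other than 8 and 11 had a median of -0.042. Mrpl10 read 9.04, 8.97 and 9.15 in the WT arrays against 8.49, 8.56 and 8.37 in Hira-null. Mrpl45 read 9.17, 9.44 and 9.66 against 8.80, 8.81 and 8.70. Both were without overlap, as were 7 of the 11 in all. Elsewhere 6 of the 64 were lower without overlap, and the range was -0.81 to 0.36. Proteasome subunit genes were lower in 6 of 6, with a median of -0.41, against -0.067 for 31 elsewhere. Psmd11, of the regulatory lid, read 10.12, 10.23 and 10.32 in the WT arrays against 9.89, 9.75 and 9.86 in Hira-null. Psmd12, of the same lid, read -0.53, and Psmb6, a catalytic subunit gene, -0.51.

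Oxidative phosphorylation genes were lower in 4 of 4, with a median of -0.47 against -0.017 for 77 elsewhere. They were Atp5g1 (-0.63, with overlap), Uqcrq (-0.54), Uqcr10 (-0.40) and Atp5h (-0.24). Cytosolic ribosomal protein genes were lower in 6 of 6 by less, with a median of -0.23 against 0.03 for 52 elsewhere. Rpl26 read 8.61, 8.64 and 8.61 in the WT arrays against 8.17, 8.09 and 8.36 in Hira-null. Rpl27 read 11.25, 11.40 and 11.51 against 11.11, 11.06 and 11.01. Rpl23a (-0.10) and Rpl19 (-0.14) overlapped. These genes are among the highest read on the array and have many near-identical copies, and the probes were not examined for reads shared between copies.

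Gene clusters of the chromosome were mostly in the low class or under the filter. All 9 members of the Hoxb cluster passed the filter, 8 of them in the low class, with a median of 0.013 and 4 lower. Type I keratins passed in 18 of 27 cases, with 16 lower and a median of -0.15, and Krt19 was lowest at -0.73. Ccl chemokine genes passed in 5 of 11 cases (median 0.02), Schlafen genes in 4 of 9 (-0.43), Cd300 genes in 5 of 8 (0.053) and olfactory receptors in 27 of 70 (-0.07). Members that pass near the filter do so partly through the line in which they read higher, so these counts support nothing by themselves. By gene type, 1278 protein-coding genes had a median of -0.25, 40 long noncoding RNAs -0.06 with 23 in the low class, and 10 small nucleolar RNAs -0.42 with 10 of 10 lower. Small nucleolar RNAs lie in introns of host genes, and signal from host and intron was not separated.

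The high class was also split by the CG content of the promoter. RefSeq windows were matched for 427 of the 501 high-class genes (85.2%). The median difference was -0.37 for the 18 with 0 to 4 CG dinucleotides in the window of 300 bases, -0.44 for the 120 with 5 to 19, and -0.41 for the 289 with 20 or more. Windows were matched for fewer of the middle-class genes, 302 of 405 (74.6%). The same split gave -0.20 for 28 genes, -0.27 for 107 and -0.31 for 167. Genes without a window may differ, so no trend is read from these medians. Windows were matched for 28 of the 34 exceeding genes and 105 of the 125 following genes, and for 729 of the 906 genes of the middle and high classes (80.5%). The GC box word occurred in 53.6% of the exceeding, 68.6% of the following and 67.4% of the middle and high class windows. The CCAAT word occurred in 42.9%, 37.1% and 39.8%, the TATA word in 3.57%, 5.71% and 6.72%, and the E-box word in 7.14%, 8.57% and 12.8%. The 34 exceeding genes include 8 of the low class and the other 2 sets include none, so these shares are not like for like. Low-class windows of the chromosome held the GC box word in 39.5%. They were matched for only 304 of 445 genes (68.3%), so that share is a description only. Among the exceeding genes that word stood in 15 of 28 windows. Only 62.5% of the escaping genes had a window, which makes the same count void for them.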

How the data were processed

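RNA of w9.5 and Cl34 cells had been hybridised to 1-colour arrays, 3 for each line. The authors deposited a log2 value for each of 35557 probe sets, made with GCRMA (version not given), per the submitters' processing notes. Their annotation build is not given in the sources used here. GCRMA equalises the arrays' overall distributions, which hides any shift common to the whole transcriptome. The platform table gave 1 symbol to 21789 probe sets, several to 1621 and none to 12147, and 21698 matched a gene table of GRCm38.p6.

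Probe sets with 3 or more arrays above 3.78, the 30th percentile of all values, were kept (25142). Hira-null minus WT was fitted with limma 3.58.1 in R 4.3.3 (lmFit and eBayes, two-sided, no covariates, Benjamini-Hochberg over all, threshold 0.05). The same fit was run on chromosome-centred values of 15143 genes, leaving out 56 genes of chromosome Y and small groups. The centred fit was also run on simulated data with independent noise and the same shift of -0.3 for chromosome 11 genes of every class. Genes of its middle and high classes were made to depart. The fit called 61.5% of 195 genes departing by 1 and 98.5% of 196 departing by 2, among 15202 and 15245 genes fitted. Wrong calls were counted among chromosome 11 genes alone, with 0 and 2 found. The measured shift differed by class and the number of departing genes is not known, so these shares need not hold for the measured arrays. Precision is limited by the number of arrays, and the median SE on chromosome 11 was 0.16.

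The members, lists and rules were chosen with earlier results of these data known. Named genes are the 12 most departing genes that met the exceed rule and the 12 that met the escape rule, 10 following genes of smallest SE, 1 gene per segment of smallest unadjusted p and, from each function list, all members of lists up to 8 and otherwise the 4 of smallest p. Predicted genes, clones, pseudogenes, small RNAs and olfactory receptors were left out there. Genes of the window chosen by its value, complexes and gene families were named as groups. Alternatives were other filters, scalings, weights, probe set rules and left-out arrays.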

Additional observations from a re-analysis of the deposited data

How the results depend on the processing

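The direction of the chromosome 11 median held under every filter, scaling, weighting and left-out array tried. It was -0.19 without a filter, -0.33 with the stricter filter and -0.30 with arrays centred on genes off chromosomes 8 and 11, and it ran from -0.25 to -0.23 when single arrays were left out. Genes lower without overlap were 520 to 591 when single arrays were left out and 714 without the outlying arrays, WT replicate 1 and Hira-null replicate 3, together. Genes past the centred fit were 16 with arrayWeights and 0 otherwise. Exceeding genes were 40 to 58 when single arrays were left out, 34 without both outlying arrays and 8 with a limit of 0.75. Escaping genes were 57 to 83 when single arrays were left out, 73 without both outlying arrays, 78 without a filter, 29 with the stricter filter and 21 with a departure of at least 0.5. Fewer arrays overlap less often by construction. All other causes were not tested. The 12 named exceeding genes stayed below the shift in every setting that measured them (Fbxo48 has no value with the stricter filter), and the 12 named escaping genes stayed above it. They were chosen as the most departing genes of these same arrays, so their sides were largely set in advance. With the stricter filter 10 of the 12 exceeding and 9 of the 12 escaping genes still met their rules. Otx1, Sox15, Pcgf2 and Tlk2, near 0, changed sign under some settings, and Nr1d1, at 0 in the main fit, ran from -0.29 to 0.15. Replicate numbers do not pair the arrays: deviations of same-numbered arrays correlated at -0.34, 0.17 and -0.099, and 1 of 6 arrays correlated best with its own number. With the replicate block 0 genes were called in either fit, as without it (lowest adjusted p by limma 0.493, and 0.517 for centred values). With 3 arrays against 3, an exact two-sided permutation test cannot go below 0.1.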
